A study of Mus musculus with 44 samples.

Results

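The Pou5f1 and Sox2 loci were described by the ATAC-seq peaks of their surroundings, namely every peak between 35495000 and 35520000 on chromosome 17 and between 34540000 and 34780000 on chromosome 3 (mm10). These windows hold 55 of 152393 peaks, 10 around Pou5f1 and 45 around Sox2. Each peak is a window of 200 bp and is named here by the distance of its centre from the annotated start site of the gene, in kb, with + for downstream. Both genes lie on the plus strand, Pou5f1 from 35506018 to 35510772 with 5 exons and Sox2 from 34650405 to 34652461 with 1 exon.

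Pou5f1 encodes Oct4, a POU-domain transcription factor present in all cells of the morula, and Sox2 encodes an HMG-box factor that appears in the inner cells and later in the epiblast. The proteins bind side by side on composite OCT-SOX elements, where a Sox site is followed by an octamer-like site. Both genes carry such an element in their own enhancers, CR4 (conserved region 4, in the distal enhancer of Pou5f1) and SRR2 (Sox2 regulatory region 2, just downstream of Sox2), so that in embryonic stem cells the pair sustains its own expression. In those cells Sox2 also depends on a cluster of enhancers far downstream of the gene, the Sox2 control region, taken here as the 8 peaks from +101.9 to +114.4 kb.

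ATAC-seq measures open chromatin by the insertion of the Tn5 transposase. There were 44 libraries in 12 groups. Ctrl embryos came from females whose floxed alleles had been deleted in the oocyte by Zp3-Cre, so they lacked the maternal copy and kept a wild-type paternal one (Pou5f1 +/Δ or Sox2 +/Δ). KO embryos carried the Δ allele and a paternal reporter allele without a functional gene (Pou5f1 mKO2/Δ or Sox2 EGFP/Δ). The labels write Oct4 for Pou5f1 and give B6C3F1 as the strain. Pou5f1-KO and its Ctrl were sampled as morula (E2.75) and late morula (E3.25), with 3 libraries a group. Both lines were sampled as early ICM (inner cell mass, E3.75) and late ICM (E4.5), with 4 libraries a group. A library was a pool of 20 to 40 embryos. The ICMs, but not the morulae, had been cultured with 1 µM PD0325901, a MEK inhibitor that holds back primitive endoderm, and had been freed of trophectoderm by immunosurgery, so stage and treatment cannot be told apart between morula and ICM. No wild-type embryo is in these comparisons.

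The alleles themselves remove or interrupt DNA that some peaks read. As the alleles are described, the removed part of Sox2 runs from 1.9 kb upstream of the start site into the 3′ UTR. Of this sequence Sox2 Ctrl embryos have 1 copy and embryos of the Pou5f1 line have 2. Sox2-KO embryos are taken to have no copy, since the EGFP allele is named a KO allele. The study's methods describe it as a conditional allele with loxP sites and do not say when it was recombined. That allele also has a PGK-EGFP cassette in the 3′ UTR. Where the removed part ends within the 3′ UTR is not given in the sources used here. The interval up to the end of the gene (34648505 to 34652461) was therefore treated as altered. In the Pou5f1 line the Δ allele lacks exons 2 to 5, and the mKO2 allele has a cassette 3.6 kb upstream of the start site and another in intron 1. The interval from the end of exon 1 to the end of Pou5f1 (35506484 to 35510772) was therefore treated as altered. The KO is described as a removal of exons 2 to 5, whereas for the mKO2 allele only the insertions are named, and where exactly the sites in intron 1 lie is not given in the sources used here. The number of copies of this interval in Pou5f1-KO is therefore taken as uncertain. The 2 Pou5f1 peaks and 2 Sox2 peaks in these intervals are given as values and left out of the counts wherever their own gene was targeted, because fewer copies and less open chromatin cannot be told apart there.

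Accessibility is given as rlog, a log2-like value that the authors computed from insertion counts over all libraries, so a difference of 1 is about a doubling, and differences at weak peaks are understated. All peaks have the same length, so levels can be set side by side. Library medians of rlog ran from 2.35 to 2.63, and the correlation between replicates of a group from 0.762 to 0.908 across peaks. Adjusted p-values are from limma, fitted to all 44 libraries with 12 group means, over all 152393 peaks. Peaks near genes known for epiblast and ICM (7 of 8 listed genes had 44 peaks within 10 kb of a start site) had a mean rlog of 3.97 to 4.25 per library in Pou5f1 Ctrl early ICM and 3.997 to 4.34 in late ICM, against 3.38 to 3.67 and 3.23 to 3.43 in Pou5f1-KO. In Sox2 Ctrl these peaks ran from 3.81 to 4.15 and from 4.15 to 4.31, against 3.66 to 4.02 and 3.84 to 4.06 in Sox2-KO. Peaks near trophectoderm genes (8 genes, 60 peaks) ran in early ICM from 3.35 to 3.675 in Pou5f1 Ctrl, 3.001 to 3.38 in Pou5f1-KO, 2.92 to 3.62 in Sox2 Ctrl and 3.12 to 3.55 in Sox2-KO. They ran in late ICM from 3.396 to 3.65 in Pou5f1 Ctrl and from 3.46 to 3.69 in Pou5f1-KO, and from 3.36 to 3.45 in Sox2 Ctrl and from 3.64 to 3.89 in Sox2-KO. Peaks near primitive endoderm genes (6 genes, 18 peaks) ran in early ICM from 3.04 to 3.30 in Pou5f1 Ctrl, 2.41 to 2.92 in Pou5f1-KO, 3.19 to 3.602 in Sox2 Ctrl and 3.12 to 3.50 in Sox2-KO. They ran in late ICM from 2.95 to 3.18 in Pou5f1 Ctrl, 2.49 to 2.79 in Pou5f1-KO, 3.23 to 3.31 in Sox2 Ctrl and 3.15 to 3.28 in Sox2-KO. The part of these shifts in the differences given for the Pou5f1 and Sox2 peaks was not tested. In pooled tissue, fewer cells with an open site and less opening per cell cannot be told apart.

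Of the 55 peaks, 2 held the composite word, and these were the peaks of CR4 and SRR2. They are printed here because they are the sites both proteins are known to use, with the composite word in capitals (letters from the mm10 genome, plus strand). The word searched was the Sox part CNTTGT, 1 free base and the octamer ATGCAAAT, on both strands with at most 2 mismatches in its 13 fixed letters. CR4 lies at chr17:35503918-35504117, 2.0 kb upstream of Pou5f1 and outside any gene, and its word is on the minus strand with 2 mismatches.
CR4: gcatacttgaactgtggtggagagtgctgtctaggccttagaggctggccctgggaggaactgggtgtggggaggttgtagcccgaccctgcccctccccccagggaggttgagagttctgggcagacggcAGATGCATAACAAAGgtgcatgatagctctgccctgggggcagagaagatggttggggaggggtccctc
SRR2 lies at chr3:34653965-34654164, 3.7 kb downstream of the Sox2 start site within Sox2ot, a noncoding gene that spans Sox2, and its word is on the plus strand with 1 mismatch.
SRR2: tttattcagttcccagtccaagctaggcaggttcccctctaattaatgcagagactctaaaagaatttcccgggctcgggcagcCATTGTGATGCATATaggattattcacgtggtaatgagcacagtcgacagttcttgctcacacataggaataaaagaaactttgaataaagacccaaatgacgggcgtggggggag
Of all peaks, 1.19% held the word at this limit. The octamer ATGCAAAT without a mismatch was in none of the 55 peaks and in 2.39% of all peaks. The Sox word CCTTTGT was in 3 of the 55 and in 4.79% of all peaks. In CR4 it overlaps the composite word, and the others were the Sox2 peaks at +95.0 and +110.1 kb. The latter lies at chr3:34760423-34760622 and is shown with CCTTTGT in capitals, because in late ICM it is the far downstream peak with the largest difference between the knockout effects.
Sox2 +110.1 kb: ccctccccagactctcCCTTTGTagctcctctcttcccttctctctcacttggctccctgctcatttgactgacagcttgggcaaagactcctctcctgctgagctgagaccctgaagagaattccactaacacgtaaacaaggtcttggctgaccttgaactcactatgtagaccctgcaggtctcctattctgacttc
The most open peak of the far downstream region in Ctrl late ICM, at chr3:34757938-34758137, held none of these words and is shown in lower case throughout.
Sox2 +107.6 kb: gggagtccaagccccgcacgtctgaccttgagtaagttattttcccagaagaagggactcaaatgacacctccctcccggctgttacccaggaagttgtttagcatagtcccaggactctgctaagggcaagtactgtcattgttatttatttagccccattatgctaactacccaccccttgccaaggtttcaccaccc

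CR4 was the most open peak of both windows, with group means between 5.90 and 6.84. In morulae its 3 Pou5f1 Ctrl libraries read 6.45, 6.56 and 6.48, and the 3 Pou5f1-KO libraries 6.37, 5.93 and 6.49. In late ICM the Ctrl libraries read 6.40, 6.64, 6.63 and 6.73 and the Pou5f1-KO libraries 5.66, 6.32, 6.30 and 6.13. Every late ICM KO library was below every Ctrl library, by a small margin. The difference was -0.50 ± 0.21 (SE) with an adjusted p of 0.083, and the 95% interval ran from -0.91 to -0.09. In early ICM it was -0.53 ± 0.21 with an adjusted p of 0.10. There, replicates of the same number deviated together, and with the replicate number as a block the same difference was called (SE 0.17, adjusted p = 0.030). The block also called the late ICM difference (SE 0.17, adjusted p = 0.026), although replicate numbers did not pair there by the same measure. In Sox2-KO the differences were -0.17 ± 0.21 in early ICM (interval -0.59 to 0.24) and -0.14 ± 0.21 in late ICM (interval -0.56 to 0.27). CR4 lies outside the altered interval of Pou5f1, but on the mKO2 allele it lies between the upstream cassette and the one in intron 1. An effect of these insertions on CR4 in Pou5f1-KO was not tested and cannot be told apart from the loss of Oct4.

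SRR2 behaved in another way: it was nearly closed in morulae, opened in the ICM, and stayed low in Pou5f1-KO. In Pou5f1 Ctrl its libraries read 1.08, 0.93 and 0.58 in morula and 0.46, 0.08 and 1.45 in late morula. They read 2.23, 3.22, 3.89 and 4.15 in early ICM and 3.85, 4.88, 4.19 and 4.56 in late ICM. All ICM libraries of this Ctrl were above all of its morula libraries, and the rise from late morula to early ICM was 2.71 ± 0.47 (adjusted p = 3.9e-06). In Pou5f1-KO the libraries read 0.91, 1.21, 1.06 and 2.45 in early ICM and 0.95, 1.47, 1.49 and 1.15 in late ICM. The late ICM groups were far apart and the early ICM groups overlapped in 1 library a side. The difference was -1.97 ± 0.43 in early ICM (adjusted p = 0.00070) and -3.10 ± 0.43 in late ICM (adjusted p = 1.4e-08). In morula and late morula it was 0.10 ± 0.50 and -0.27 ± 0.50, where the peak was near the floor of the values in both genotypes.

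SRR2 was also lower in Sox2-KO. Sox2 Ctrl libraries read 2.65, 3.38, 4.18 and 4.14 in early ICM and 4.04, 3.78, 4.54 and 4.27 in late ICM, and Sox2-KO libraries read 2.62, 2.40, 1.41 and 2.86 and then 2.89, 2.29, 2.94 and 2.40. In late ICM no KO library reached a Ctrl library, and the difference was -1.53 ± 0.43 (adjusted p = 0.013). That call was lost without Sox2-KO late ICM replicate 2 (-1.41, adjusted p = 0.053) and without Sox2 Ctrl late ICM replicate 3 (-1.40, adjusted p = 0.052). In early ICM the difference was -1.27 ± 0.43 with an adjusted p of 0.12. The Sox2-KO libraries in late ICM, at 2.29 and above, stood above the Pou5f1-KO libraries, at 1.49 and below. The test of the Pou5f1-KO effect minus the Sox2-KO effect gave -1.58 ± 0.61 in late ICM with an adjusted p of 0.22, so a difference between the knockouts at SRR2 was not called, and its interval ran from -2.79 to -0.37. SRR2 lies outside the Sox2 interval that the alleles remove. On the EGFP allele, however, a PGK-EGFP cassette sits in the 3′ UTR of Sox2, upstream of SRR2. An effect of that cassette on SRR2 in Sox2-KO was not tested and cannot be told apart from the loss of Sox2.

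**Figure D1:**
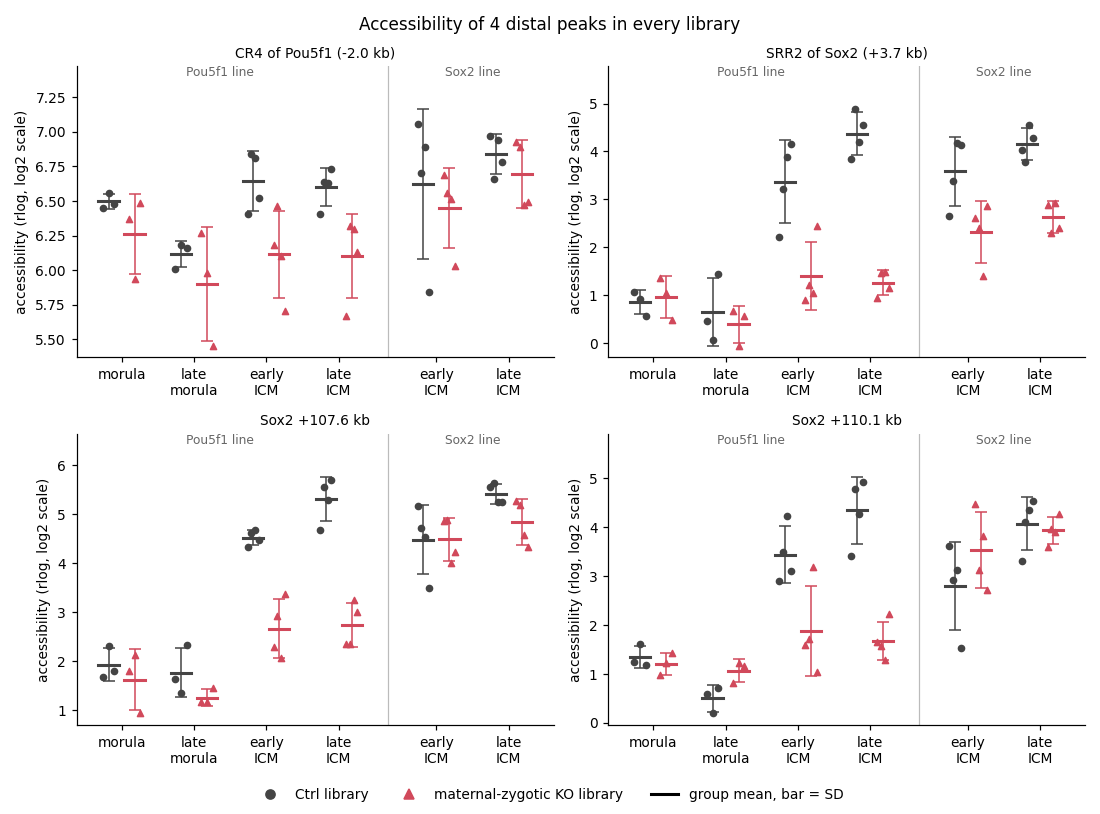
Accessibility (rlog, log2 scale, vertical axis) of CR4, SRR2 and the Sox2 peaks at +107.6 and +110.1 kb in every library, by stage and line (horizontal axis); circles are Ctrl and triangles KO libraries, thick lines group means and thin bars SD, with a vertical scale of its own for each peak. CR4 stays between 5.45 and 7.06 in all libraries, whereas the other peaks rise from morula to ICM in Ctrl and are lower in Pou5f1-KO ICMs.

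The far downstream peaks of Sox2 opened along with SRR2. The 8 peaks from +101.9 to +114.4 kb lie outside annotated genes. From late morula to early ICM of Pou5f1 Ctrl, 6 of the 8 were called higher and none lower (14.7% and 15.0% of all peaks), with a median difference of 2.29 and a range from -0.03 to 2.93. At +107.6 kb, the 3 late morula libraries read 1.63, 1.35 and 2.32 and the 4 early ICM libraries 4.33, 4.61, 4.67 and 4.47, a rise of 2.754 ± 0.40 (adjusted p = 8.8e-08). In late ICM this peak read 4.68, 5.55, 5.30 and 5.70. The peaks at +103.4 and +104.9 kb were the exceptions, with means of 2.95 ± 0.38 (SD, n = 3) and 2.63 ± 0.35 already in late morula and 2.92 ± 0.40 (n = 4) and 3.45 ± 0.70 in early ICM.

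In Pou5f1-KO, 5 of these 8 peaks were called lower in each ICM stage (of all peaks, 5.43% in early and 10.1% in late ICM), with median differences of -1.56 and -1.88. At +107.6 kb the Pou5f1-KO libraries read 2.30, 2.91, 2.07 and 3.38 in early ICM and 2.36, 2.34, 3.24 and 3.00 in late ICM. Every one of them was below every Ctrl library of its stage, and the differences were -1.85 ± 0.37 (adjusted p = 0.00018) and -2.57 ± 0.37 (adjusted p = 4.9e-08). At +110.1 kb the late ICM libraries read 3.42, 4.78, 4.26 and 4.93 in Ctrl and 1.65, 1.57, 1.29 and 2.22 in Pou5f1-KO, a difference of -2.67 ± 0.43 (adjusted p = 9.2e-07). The peaks at +111.0 and +114.4 kb differed in late ICM by -2.09 ± 0.39 and -2.34 ± 0.45 (adjusted p = 2.4e-05 and 4.0e-05) and were called in early ICM as well. Just beyond the region, the peak at +116.5 kb was called lower in both stages, with -1.57 ± 0.43 and -1.90 ± 0.43.

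The same 8 peaks gave no call in Sox2-KO by limma fitted to all libraries, where 1.91% of all peaks were called lower in early and 4.88% in late ICM. At an unadjusted p under 0.05, 1 of the 8 passed in early ICM (+106.6 kb, 0.94 higher) and 2 in late ICM (+103.4 kb, 1.14 higher, and +111.0 kb, lower), where 6.71% and 9.92% of all peaks were lower and 5.1% and 9.15% higher at that threshold. In late ICM +103.4 kb was called higher with the replicate block (adjusted p = 0.041) and with only the libraries compared (adjusted p = 0.048), and +111.0 kb was called lower with only the libraries compared (adjusted p = 0.029). Their median difference was 0.35 in early ICM, with 1 of 8 below 0, and -0.38 in late ICM, with 6 of 8 below 0. At +107.6 kb the Sox2-KO libraries read 4.85, 4.87, 4.0 and 4.22 in early ICM, within the Ctrl libraries at 5.16, 4.72, 4.52 and 3.50, a difference of 0.01 ± 0.37 (interval -0.73 to 0.75). In late ICM they read 5.27, 5.20, 4.57 and 4.33 against 5.56, 5.63, 5.24 and 5.25, a difference of -0.58 ± 0.37 with an adjusted p of 0.44 and an interval from -1.32 to 0.16. At +110.1 kb the late ICM difference was -0.14 ± 0.43 (interval -0.995 to 0.72). At +111.0 kb no late ICM Sox2-KO library, at 2.99 to 3.62, reached a Ctrl library, at 4.08 to 4.56, and the difference was -1.06 ± 0.39 with an adjusted p of 0.083. Just beyond the region, the peak at +116.5 kb was called lower in Sox2-KO late ICM, with values given below.

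The difference between the knockout effects was itself tested on the peaks outside both altered intervals. In early ICM 2 of 51 peaks were called, the Sox2 peaks at +106.6 kb (-2.50 ± 0.63, adjusted p = 0.028) and +110.1 kb (-2.29 ± 0.61, adjusted p = 0.046), where 0.68% of all peaks were called in either direction. In late ICM 4 of 51 were called, against 0.905% of all peaks. These were the Sox2 peaks at +110.1 kb (-2.53 ± 0.61, adjusted p = 0.017), +48.7 kb (-1.95 ± 0.49, adjusted p = 0.024), +84.7 kb (-1.79 ± 0.47, adjusted p = 0.034) and +107.6 kb (-2.0 ± 0.53, adjusted p = 0.036). All 6 values were negative, that is, lower in Pou5f1-KO relative to Sox2-KO. Each of these calls rested on narrow margins. With 1 of 16 libraries left out in turn, the late ICM call at +110.1 kb was lost in 2 fits, without Pou5f1 Ctrl late ICM replicate 4 (-2.33, adjusted p = 0.063) or Sox2 Ctrl late ICM replicate 1 (-2.27, adjusted p = 0.061), and the difference kept within -2.84 to -2.27. The call at +107.6 kb was lost in 11 of 16 fits (-2.21 to -1.85 over the 16, adjusted p up to 0.10), and was kept without Pou5f1 Ctrl replicate 1, Pou5f1-KO replicates 3 and 4 or Sox2-KO replicates 3 and 4. The call at +48.7 kb was lost without Pou5f1 Ctrl replicate 4, Pou5f1-KO replicate 1 or 4, Sox2-KO replicate 2 or 3 or Sox2 Ctrl replicate 4, and went to -1.36 (adjusted p = 0.18) without the last. The call at +84.7 kb was kept without Pou5f1 Ctrl replicate 1, Pou5f1-KO replicates 3 and 4, Sox2-KO replicates 3 and 4 or Sox2 Ctrl replicates 1 and 2, and lost in the other 9 fits (-1.79 to -1.54, adjusted p up to 0.11). In early ICM the call at +106.6 kb was lost without Pou5f1-KO replicate 1, Pou5f1 Ctrl replicate 2 or 3, Sox2-KO replicate 1 or 3 or Sox2 Ctrl replicate 2 (-2.50 to -2.05, adjusted p up to 0.13), and that at +110.1 kb in 10 fits (-2.40 to -1.86, adjusted p up to 0.15), kept without Pou5f1 Ctrl replicates 1 and 4, Pou5f1-KO replicate 3, Sox2-KO replicates 2 and 4 or Sox2 Ctrl replicate 1.

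**Figure D2:**
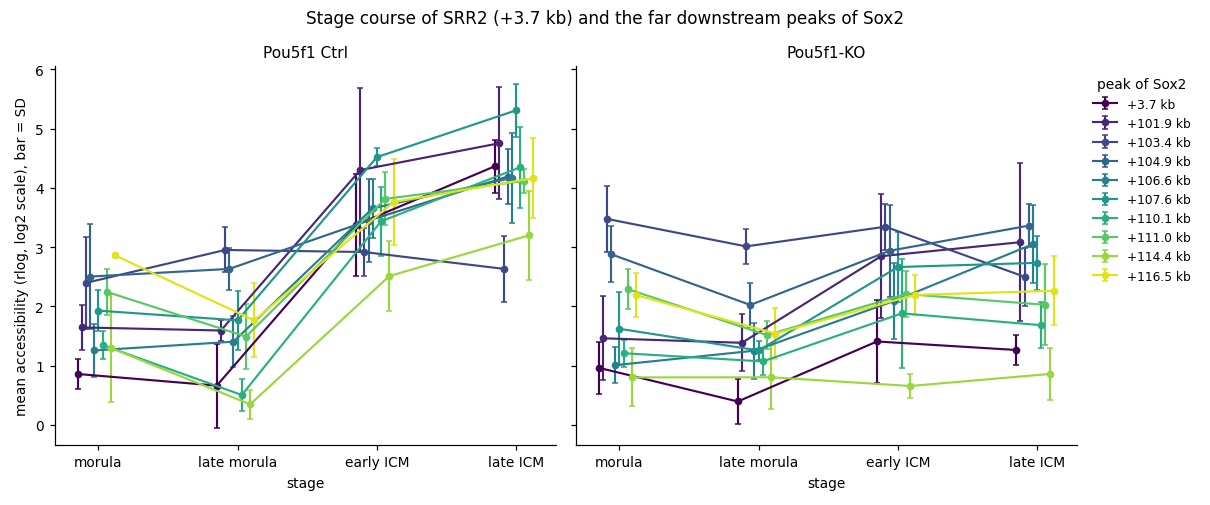
Group means of accessibility (rlog, log2 scale, vertical axis; bars SD) of SRR2 (+3.7 kb) and the 9 Sox2 peaks from +101.9 to +116.5 kb over the 4 stages of the Pou5f1 line (horizontal axis), Ctrl left and Pou5f1-KO right; each line is 1 peak. In Ctrl most lines climb from late morula to late ICM, where 9 of 10 have means between 3.20 and 5.31, and in Pou5f1-KO ICMs the means of +114.4 kb and SRR2 lie between 0.66 and 1.41.

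The start site of Pou5f1, which on the mKO2 allele also lies between the cassettes, stayed open in Pou5f1-KO. The peak there (35505888 to 35506087, over exon 1 and outside the altered interval) read 4.72, 4.81 and 5.11 in Pou5f1 Ctrl morula and 4.21, 5.01 and 5.32 in Pou5f1-KO morula. In late ICM it read 5.10, 5.13, 5.15 and 4.09 in Ctrl and 5.24, 5.30, 4.93 and 4.22 in KO, groups that overlap fully, with a difference of 0.06 ± 0.33. In early ICM the libraries read 5.46, 5.84, 5.60 and 5.01 in Ctrl and 4.56, 5.04, 4.75 and 3.07 in KO, and the peak was called lower (-1.13 ± 0.33, adjusted p = 0.015). That call was lost without Pou5f1-KO early ICM replicate 4, the lowest library (-0.70, adjusted p = 0.24), and without Pou5f1 Ctrl early ICM replicate 2 (-1.01, adjusted p = 0.076). In Sox2-KO the differences were -0.07 ± 0.33 and -0.22 ± 0.33 in early and late ICM. An effect of the cassettes on the Pou5f1-KO values at this peak was not tested.

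Inside the altered part of Pou5f1 lie the peaks at +0.9 kb, in intron 1, and +3.4 kb, over exon 3. At +0.9 kb the group means ran from 3.36 to 4.57 in Pou5f1 Ctrl and from 3.35 to 4.38 in Pou5f1-KO. At +3.4 kb the late ICM libraries read 2.44, 2.99, 3.00 and 2.04 in Pou5f1 Ctrl, with 1 copy of the exons, and 3.45, 2.17, 2.54 and 2.25 in Pou5f1-KO. In the Sox2 line, with 2 copies in both groups, they read 4.38, 4.24, 3.57 and 4.45 in Sox2 Ctrl and 3.48, 3.34, 2.79 and 3.4 in Sox2-KO. Sox2 Ctrl stood above every Pou5f1 Ctrl library, whereas Sox2-KO stood below every Sox2 Ctrl library and reached into the range of Pou5f1 Ctrl. The part of copy number in these differences was not tested. The peak at +3.4 kb also overlaps a noncoding gene model, Gm19553.

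Near the Sox2 start site no peak lies within 100 bp, and the closest, at -0.5 kb, ends 380 bp upstream of it and lies in the deleted part, as does the peak at +0.6 kb in the exon. Where Sox2 is intact, in the Pou5f1 line, the -0.5 kb peak opened from late morula to early ICM: Ctrl libraries read 2.35, 2.62 and 2.35 and then 3.65, 4.21, 4.46 and 4.03 (1.65 ± 0.43, adjusted p = 0.0019). In Pou5f1-KO late ICM it read 2.93, 3.12, 3.253 and 3.71 against 4.52, 4.43, 4.55 and 4.41 in Ctrl, a separation without overlap (-1.22 ± 0.40, adjusted p = 0.019), and without Pou5f1-KO late ICM replicate 1 the call was lost (-1.12, adjusted p = 0.060). In early ICM the difference was -0.26 ± 0.40. In the Sox2 line, Sox2 Ctrl libraries read 2.35, 3.14, 3.13 and 3.28 in late ICM and Sox2-KO libraries 0.49, 0.68, 0.65 and 1.05. The late ICM means of Pou5f1 Ctrl, Sox2 Ctrl and Sox2-KO, taken to have 2, 1 and 0 copies, were 4.48, 2.98 and 0.72. Pou5f1-KO, also with 2 copies, read 2.93 to 3.71 and so overlapped Sox2 Ctrl. The part of copy number in these differences was not tested. At +0.6 kb the groups were less distinct. The late ICM libraries there read 3.27, 3.50, 2.42 and 2.92 in Sox2 Ctrl and 1.26, 1.14, 1.96 and 2.91 in Sox2-KO, so that Sox2-KO replicate 4 was level with Ctrl although the deletion as described leaves it no copy. The means of Pou5f1 Ctrl, Sox2 Ctrl and Sox2-KO were 3.26, 3.03 and 1.82 in late ICM. In early ICM they were 2.60, 3.07 and 2.10, and Sox2-KO replicate 3 (2.77) was above Sox2 Ctrl replicate 4 (1.95). Pou5f1-KO libraries, with 2 copies, read 3.35, 3.96, 1.58 and 3.13 in early ICM and 1.68, 2.70, 2.86 and 2.44 in late ICM. The source of the signal at +0.6 kb in Sox2-KO was not tested.

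**Figure D3:**
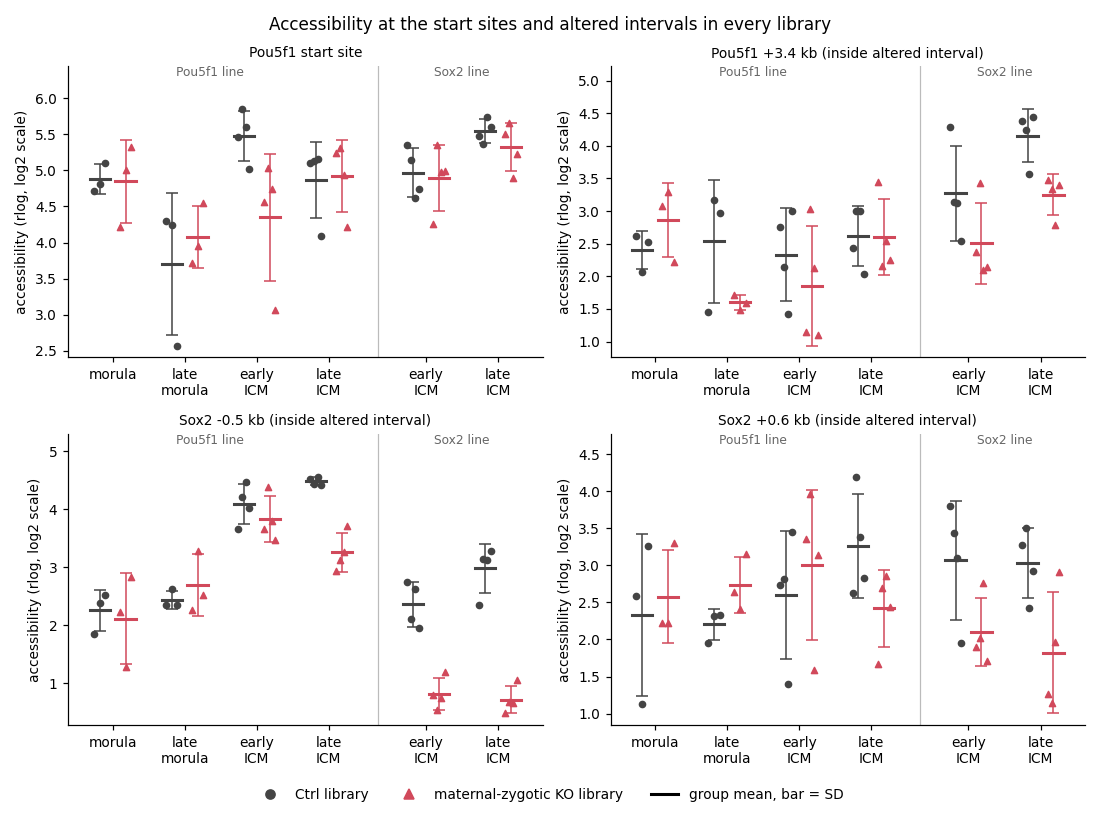
Accessibility (rlog, log2 scale, vertical axis) in every library of the peak at the Pou5f1 start site and the peaks at Pou5f1 +3.4, Sox2 -0.5 and Sox2 +0.6 kb, by stage and line (horizontal axis); circles are Ctrl and triangles KO libraries, thick lines means and thin bars SD. At Sox2 -0.5 kb the Sox2-KO libraries, which are taken to have no copy of the sequence, all lie between 0.49 and 1.19.

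Counted over both windows, peaks were called lower in Pou5f1-KO ICMs and none was called in Pou5f1-KO morulae. In Pou5f1-KO morula 0 of 53 counted peaks were called by limma, with 3 lower and 1 higher at an unadjusted p under 0.05 (4.63% and 3.61% of all peaks), where 0.185% of all peaks were called lower and 0.0518% higher. In late morula 0 of 53 were called, with 0 at an unadjusted p under 0.05 (4.92% of all peaks lower and 3.79% higher), where 0.539% and 0.108% of all peaks were called lower and higher. In early ICM 9 of 53 were called, all lower, where 8.18% of all peaks were called in either direction and 5.43% lower. In late ICM 18 of 53 (34.0%) were called, all lower, where 18.3% of all peaks were called in either direction and 10.1% lower. The median difference over the counted peaks was -0.31 in early ICM and -0.66 in late ICM, and over all peaks -0.02 and -0.04. Of the called peaks, 7 were lower in both ICM stages, 2 in early ICM alone and 11 in late ICM alone. The same split over all peaks is not given here, and more of all peaks were called lower in late (10.1%) than in early ICM (5.43%). The split is therefore not taken as particular to these loci. The counts of 7, 2 and 11 moved with the fit. Of the 2, Sox2 +106.6 kb was also called in late ICM (-1.12) with the replicate block (adjusted p = 0.036) and with only the libraries compared (0.031), as was Sox2 +57.7 kb (-1.12, adjusted p = 0.029 and 0.046), which the fit to all libraries called in neither stage. No change of the effect from early to late ICM was called at any of the 53 peaks (2 lower and 1 higher at an unadjusted p under 0.05, against 3.73% and 4.23% of all peaks) or at any peak of the table (0.0% called, 12131 at an unadjusted p under 0.05, limma). The change of the effect from late morula to early ICM was called at 0 of 53 peaks, and at 0.346% of all peaks. At an unadjusted p under 0.05, 9 of the 53 were lower and 0 higher, against 5.88% and 4.33% of all peaks.

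Around Sox2, 7 of 45 peaks were lower in Pou5f1-KO early ICM and 16 of 45 in late ICM, against 5.43% and 10.1% of all peaks. Upstream of the gene these included -7.7 kb, where late ICM Ctrl libraries read 2.58, 2.35, 3.06 and 2.86 and KO libraries 0.60, 1.77, 0.18 and 0.38 (-1.98 ± 0.44, adjusted p = 0.00038), and -74.3 kb. Between SRR2 and the far downstream region they included +84.7 kb (5.11 in Ctrl and 3.67 in KO, -1.45 ± 0.33, adjusted p = 0.00056) and +93.4 kb (-1.45 ± 0.39, adjusted p = 0.0042). They also included +95.0 kb, which with +47.4 and +84.7 kb was among the 3 most open of this window. At +95.0 kb the late ICM libraries read 6.19, 6.30, 5.86 and 6.13 in Ctrl and 5.12, 4.36, 4.38 and 4.90 in KO (-1.43 ± 0.27, adjusted p = 2.9e-05), and in early ICM the difference was -0.27 ± 0.27. In Sox2-KO late ICM this peak read 5.82, 5.68, 5.75 and 5.12, below every Sox2 Ctrl library at 6.45, 6.57, 5.99 and 6.45 (-0.77 ± 0.27, adjusted p = 0.064). That difference was called with only the libraries compared (adjusted p = 0.0057), the replicate block (0.023) and quantile normalization (0.041). The +47.4 kb peak, of the same mean level over all libraries, differed by -0.20 ± 0.29 in late ICM (interval -0.76 to 0.37).

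Around Pou5f1, 2 of 8 counted peaks were lower in each ICM stage, against 5.43% of all peaks in early and 10.1% in late ICM, too few peaks to set the window apart. They were the start site peak in early ICM, the peak at +9.8 kb in both stages and the peak at +8.0 kb in late ICM, the last pair within Tcf19, the gene next to Pou5f1. At +8.0 kb the late ICM libraries read 3.37, 3.66, 4.18 and 4.22 in Ctrl and 1.55, 2.753, 2.83 and 1.61 in KO, without overlap (-1.67 ± 0.39, adjusted p = 0.00084). At +9.8 kb the late ICM difference was -1.67 ± 0.40 (adjusted p = 0.0011) and the early ICM difference -1.32 ± 0.40 (adjusted p = 0.023). The early ICM call was lost without Pou5f1 Ctrl replicate 2 or 3 or Pou5f1-KO replicate 3 of that stage (-1.18, -1.10 and -1.14, adjusted p = 0.098, 0.12 and 0.10). It was also lost with only the libraries compared (-1.32, adjusted p = 0.051). The peak at +10.9 kb, at the start sites of Tcf19 and Cchcr1 and among the 3 most open of the window, differed by -0.07 ± 0.31 in late ICM. The peak at -3.2 kb, near the place of the upstream cassette, differed by -0.76 ± 0.33 in late ICM (adjusted p = 0.097).

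Several calls of Pou5f1-KO depended on 1 library. In late ICM, +50.1 kb (-1.25 ± 0.39, adjusted p = 0.016) was lost without KO replicate 1 (-0.72, adjusted p = 0.23), KO replicate 4 (-1.16, adjusted p = 0.051) or Ctrl replicate 4 (-1.09, adjusted p = 0.070). The peak at +101.9 kb (-1.67 ± 0.56, adjusted p = 0.025) was lost without KO replicate 1 (-1.03, adjusted p = 0.24) or Ctrl replicate 2, 3 or 4 (-1.48 to -1.54, adjusted p = 0.073 to 0.086), and in early ICM, where it was not called (-1.45 ± 0.56, adjusted p = 0.096), it was called with the replicate block (adjusted p = 0.012) and with only the libraries compared (adjusted p = 0.028). The peak at +15.0 kb (-1.33 ± 0.43, adjusted p = 0.019) was lost without KO replicate 1 (-1.02, adjusted p = 0.12) or Ctrl replicate 1 (-1.16, adjusted p = 0.072), and -74.3 kb (-1.32 ± 0.43, adjusted p = 0.020) without KO replicate 4 (-1.18, adjusted p = 0.073). The weakest call, +6.7 kb (-1.12 ± 0.42, adjusted p = 0.048), was lost in 6 of 8 such fits, without Ctrl replicate 1, 2 or 4 or KO replicate 1, 3 or 4 (-0.86 to -1.24, adjusted p up to 0.20), and also with only the libraries compared (adjusted p = 0.069) and with quantile normalization (0.062). In early ICM, +106.6 kb (-1.57 ± 0.44, adjusted p = 0.013) was lost without KO replicate 1 (-1.25, adjusted p = 0.093) or Ctrl replicate 3 (-1.37, adjusted p = 0.065), +110.1 kb (-1.55 ± 0.43, adjusted p = 0.011) without KO replicate 4 (-1.27, adjusted p = 0.083) or Ctrl replicate 3 (-1.29, adjusted p = 0.076), and +116.5 kb (adjusted p = 0.0093) without Ctrl replicate 2 (-1.30, adjusted p = 0.081). None of these differences changed sign.

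**Figure D4:**
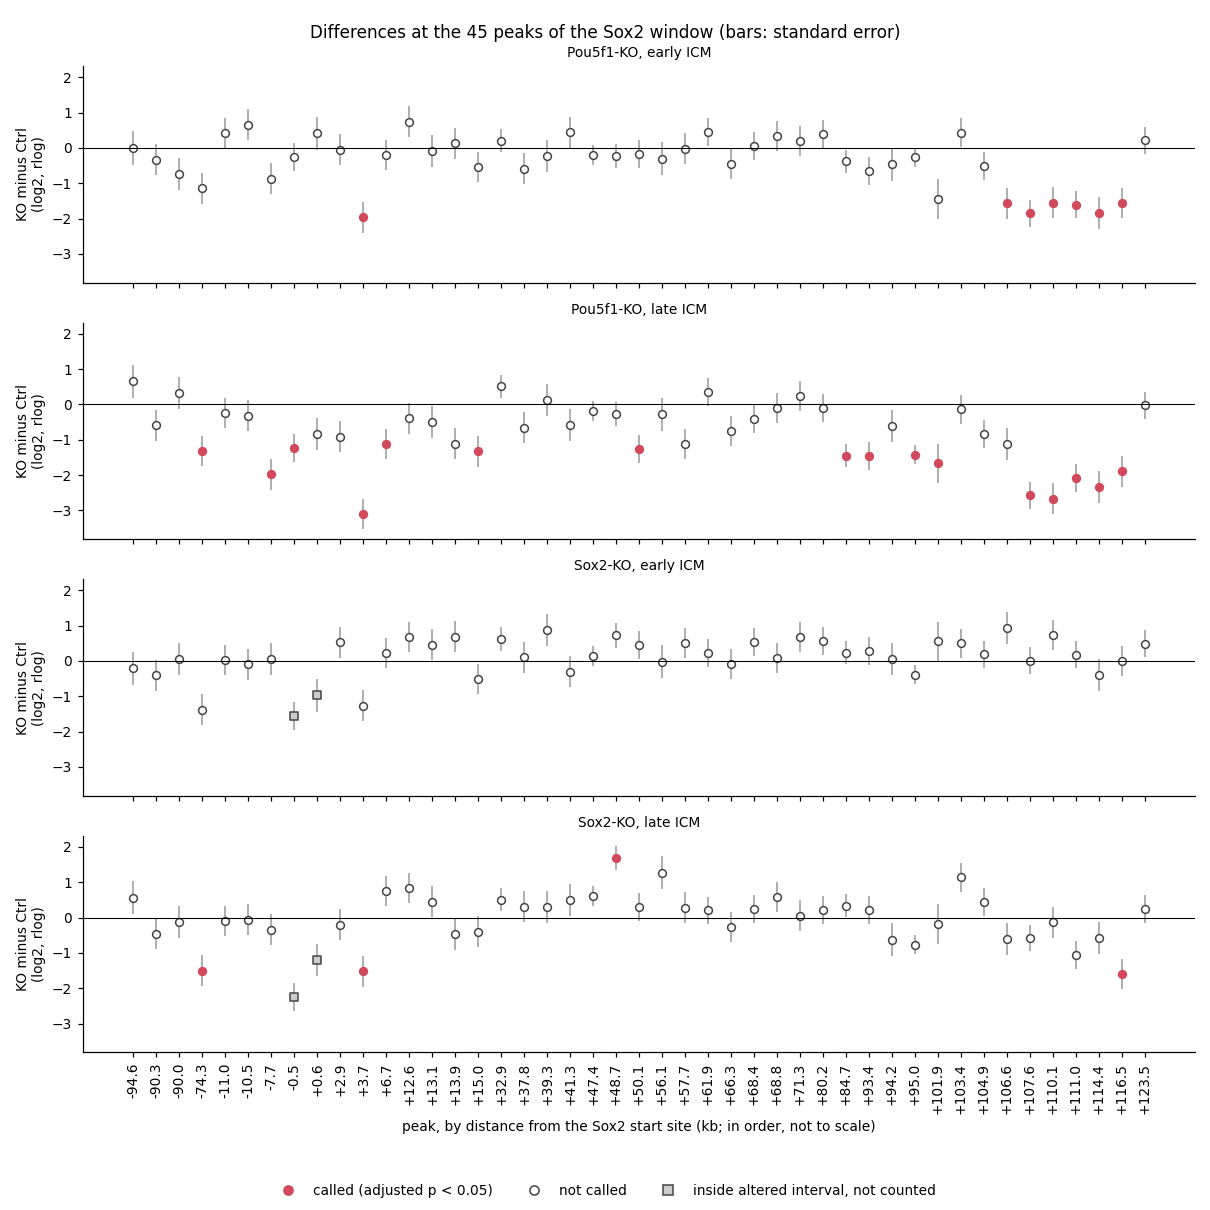
Difference KO minus Ctrl (log2, rlog, vertical axis; bars standard error) at each of the 45 peaks of the Sox2 window, in order of distance from the start site (kb, horizontal axis, not to scale), in 4 comparisons; red points passed an adjusted p of 0.05 and grey squares lie in the sequence that the Sox2 alleles lack. In Pou5f1-KO the peaks from +107.6 to +116.5 kb form a run of called decreases in both ICM stages. In Sox2-KO none of them is called in early ICM, and +116.5 kb is called lower in late ICM.

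In Sox2-KO the calls of the fit to all libraries were in late ICM, at shares near those of all peaks. The 4 late ICM calls became 9 with only the libraries compared or with the replicate block, and the block also called -74.3 kb of Sox2 lower in early ICM (-1.38, adjusted p = 0.045). The shares of all peaks called under these alternatives are not given here, so the 9 calls cannot be set against them. In Sox2-KO early ICM 0 of 53 counted peaks passed in limma, with 2 lower and 2 higher at an unadjusted p under 0.05 (6.71% and 5.1% of all peaks), where 1.91% of all peaks were called lower and 0.238% higher. In late ICM 3 were called lower and 1 higher, against 4.88% and 2.71% of all peaks. The median difference of the 53 was 0.10 in early and -0.10 in late ICM, against 0.05 and 0.01 over all peaks. Besides SRR2, the lower peaks were -74.3 and +116.5 kb of Sox2, and all 3 were also called lower in Pou5f1-KO late ICM. The share of all peaks lower in Sox2-KO that were lower in Pou5f1-KO too is not given here. This overlap is therefore not taken as particular to these loci. The -74.3 kb peak, in Sox2ot, read 2.85, 2.34, 2.80 and 3.01 in Sox2 Ctrl late ICM and 1.56, 0.42, 1.75 and 1.25 in Sox2-KO (-1.50 ± 0.43, adjusted p = 0.015). In early ICM the libraries of this peak did not overlap either (-1.38 ± 0.43, adjusted p = 0.069). Its late ICM call was lost without Sox2-KO replicate 2 (-1.23, adjusted p = 0.11).

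At +116.5 kb the late ICM libraries read 2.96, 3.13, 4.09 and 2.52 in Sox2 Ctrl and 1.25, 2.00, 1.09 and 1.93 in Sox2-KO (-1.61 ± 0.43, adjusted p = 0.0075), and the call was lost without Ctrl replicate 3 (-1.30, adjusted p = 0.071). The peak that rose was +48.7 kb. Its late ICM libraries read 5.08, 4.09, 4.32 and 2.13 in Ctrl and 5.57, 5.66, 5.75 and 5.36 in Sox2-KO (1.68 ± 0.35, adjusted p = 0.00025). All KO libraries were above all Ctrl libraries, in early ICM too (0.73 ± 0.35, adjusted p = 0.38), and without Ctrl replicate 4, the lowest, the late ICM difference was 1.09 (adjusted p = 0.037). In Pou5f1-KO this peak differed by -0.24 ± 0.35 and -0.27 ± 0.35. Around Pou5f1 no peak was called in Sox2-KO in the fit to all libraries. In late ICM, +8.0 kb (-1.07) and +9.8 kb (-1.15) were called lower with only the libraries compared (adjusted p = 0.021 and 0.032) and with the replicate block (adjusted p = 0.030 and 0.035). In late ICM 9 of 10 were below 0, 4 of them at an unadjusted p under 0.05 (9.92% of all peaks), and the lowest adjusted p was that of +9.8 kb (-1.15 ± 0.40, 0.062).

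**Figure D5:**
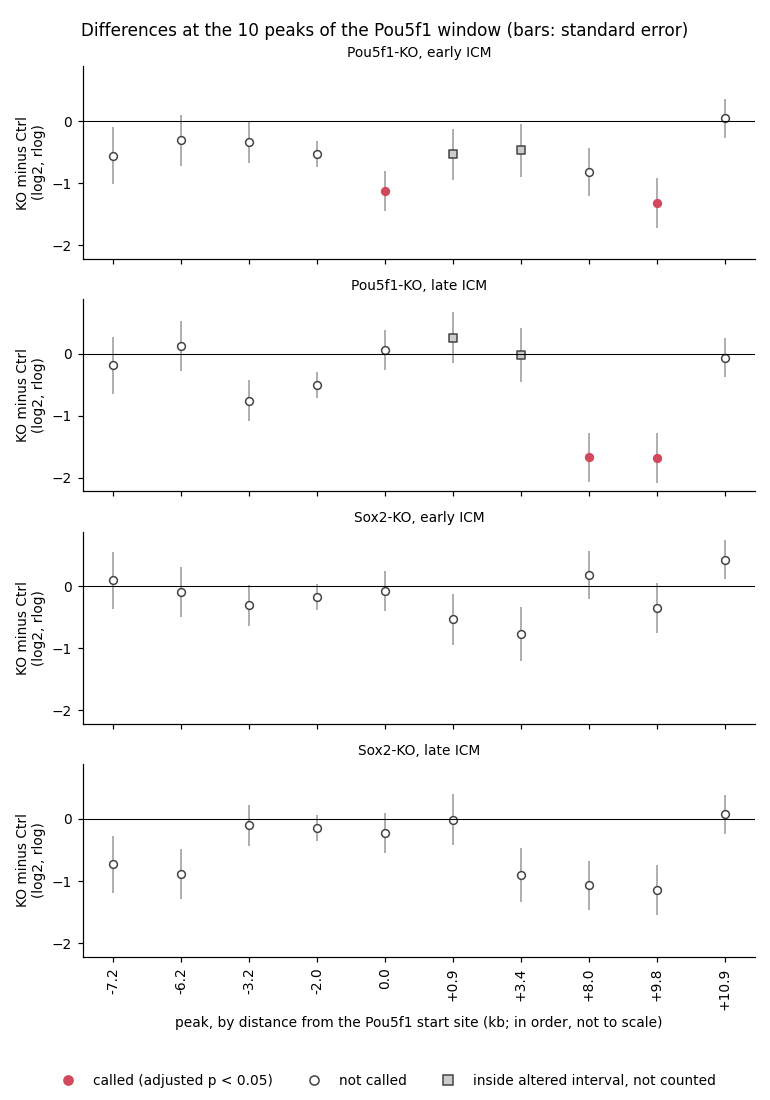
Difference KO minus Ctrl (log2, rlog, vertical axis; bars standard error) at each of the 10 peaks of the Pou5f1 window, in order of distance from the start site (kb, horizontal axis, not to scale), in 4 comparisons; red points passed an adjusted p of 0.05 and grey squares lie in the altered part of Pou5f1. CR4, at -2.0 kb, lies within 0.6 of 0 in all 4 comparisons, and the called decreases in late ICM are the peaks at +8.0 and +9.8 kb.

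Along the stages of Pou5f1 Ctrl, most movement fell between late morula and early ICM. There 25 of 55 peaks were called higher and 0 lower, 5 around Pou5f1 and 20 around Sox2, where 14.7% of all peaks were called higher and 15.0% lower. Of the 18 peaks lower in Pou5f1-KO late ICM, 13 (72.2%) were among them, which is 52.0% of the 25. Over all peaks, 8079 of the 15404 lower in Pou5f1-KO late ICM (52.4%) rose in this step, which is 36.1% of the 22384 that rose, and 45.5% of the 55 peaks rose in any case, so the overlap was not taken as particular to these loci. In the same step, peaks near epiblast and ICM genes went from 3.06 to 3.42 per library to 3.97 to 4.25. Those near primitive endoderm genes went from 2.46 to 2.92 to 3.04 to 3.30. Those near trophectoderm genes read 3.44 to 3.62 and then 3.35 to 3.675. The part of these shifts in the rises was not tested. Besides the peaks named above, +93.4 kb rose by 2.20 ± 0.42 (adjusted p = 3.3e-05), +12.6 kb by 2.11 ± 0.47 (adjusted p = 0.00026) and the Pou5f1 start site peak by 1.78 ± 0.35 (adjusted p = 5.3e-05). With 1 library left out, the calls at -3.2, +9.8 and +10.9 kb of Pou5f1 and +15.0 and +80.2 kb of Sox2 were each lost in 1 or 2 of 7 fits, without Pou5f1 Ctrl late morula replicate 1, 2 or 3 or early ICM replicate 2 (0.80 to 1.26, adjusted p = 0.055 to 0.12). From morula to late morula 4 of 55 were called lower and 0 higher, against 2.79% and 3.65% of all peaks. Of these, +9.8 kb of Pou5f1 (-2.07 ± 0.47, adjusted p = 0.0021) was called without any of the 6 libraries. The others, -6.2 kb and the start site of Pou5f1 and +95.0 kb of Sox2, were lost in 6, 4 and 5 of 6 such fits (adjusted p up to 0.15, 0.45 and 0.26). Without Pou5f1 Ctrl late morula replicate 3, whose start site peak read 2.57 against 4.29 and 4.24, the fall at the start site went from -1.18 to -0.61 (adjusted p = 0.45).

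From early to late ICM 0 of 55 peaks were called by limma in Pou5f1 Ctrl, with 1 lower and 6 higher at an unadjusted p under 0.05 (5.29% and 4.8% of all peaks), where 0.18% of all peaks were called lower and 0.0787% higher. In Sox2 Ctrl 0 of 55 were called, where 0.121% of all peaks were called lower and 0.474% higher. At an unadjusted p under 0.05, 1 was lower and 14 were higher, against 4.69% and 6.91% of all peaks. SRR2 differed by 0.99 ± 0.43 and 0.57 ± 0.43, and +107.6 kb had means of 4.52 and 5.31 in Pou5f1 Ctrl and 4.48 and 5.42 in Sox2 Ctrl.

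The Ctrl libraries of the lines, which differ in their alleles, were also set against each other. Outside both altered intervals 0 of 51 peaks were called in early ICM by limma, with 7 lower and 1 higher in Sox2 Ctrl at an unadjusted p under 0.05 (7.26% and 5.42% of all peaks), where 0.899% of all peaks were called. In late ICM 2 of 51 were called, against 1.43%. The Pou5f1 peak at -6.2 kb read 3.99, 3.47, 3.69 and 4.17 in Sox2 Ctrl and 2.31, 1.64, 2.17 and 2.69 in Pou5f1 Ctrl (1.63 ± 0.40, adjusted p = 0.018), and the call was lost without Pou5f1 Ctrl replicate 2 or 3 or Sox2 Ctrl replicate 1 or 4 (adjusted p up to 0.087). The Sox2 peak at +101.9 kb read 2.54, 1.62, 3.69 and 1.95 in Sox2 Ctrl and 3.33, 5.31, 5.13 and 5.24 in Pou5f1 Ctrl (-2.30 ± 0.56, adjusted p = 0.015), and that call was lost without Pou5f1 Ctrl replicate 2, 3 or 4 or Sox2 Ctrl replicate 2 or 4 (adjusted p up to 0.087). This peak spread widely within groups too, from 1.05 to 4.20 in Sox2 Ctrl early ICM.

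Over the 12 group means, SRR2 and the +107.6 kb peak had similar profiles (Pearson r = 0.951), and CR4 was less like either (0.841 and 0.846). Groups of the same stage and line share conditions, so these values are descriptions. Outside both windows, 142629 peaks had group means that span at least 1. Those most like SRR2 lie nearest to the coding genes Atxn2l, Egln3 and Npbwr1, at 15.3, 173.5 and 117.6 kb from the start site (r = 0.992, 0.989 and 0.988). Those most like +107.6 kb lie nearest to Atrx, Rap1gap2 and Adgrb2 (r = 0.988, 0.987 and 0.987), and those most like CR4 nearest to Pan3, Sgpl1 and Tdgf1 (r = 0.988, 0.978 and 0.973). Of these 9 peaks the one near Pan3 held the composite word.

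The study listed 7 other enhancers beside CR4 and SRR2, those of Prdm14, Pecam1, Klf4, Nanog (a distal and a proximal one), Utf1 and Klf2. In Pou5f1-KO 0 and 1 of the 7 were called lower in morula and late morula, where 0.185% and 0.539% of all peaks were. In early and late ICM 5 and 6 were called lower, against 5.43% and 10.1% of all peaks, with median differences of -1.53 and -1.66. In Sox2-KO 3 and 4 of 7 were called lower in early and late ICM, against 1.91% and 4.88% of all peaks, with medians of -0.96 and -1.66. None was called higher in any of the 6 comparisons. The study marked these enhancers on a display of these samples and how they were chosen is not stated in the sources used here, so the list is not taken as independent evidence of a direction. CR4 and the distal Nanog enhancer were the members of the whole list without a call in any of the 6 comparisons when no replicate block was used.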

How the data were processed

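ATAC-seq libraries of pooled morulae or isolated ICMs were used, 44 in 12 groups taken from the sample labels. The authors trimmed reads with SeqPurge, aligned them to mm10 with Bowtie2, removed duplicates with Picard, kept unique reads with a mapping quality of at least 30, shifted ends to the Tn5 site, called peaks with MACS2, kept merged summits found in at least 2 replicates as 200 bp windows and counted insertions with BEDTools. The deposited log2 values are rlog values that the authors made from those counts with DESeq2 over all libraries. Counts and depths were not analysed here, so precision rests on the number of libraries. The deposited group means were not used.

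Tables were handled in pandas 2.3.3 and numpy 2.4.6 (Python 3.11.15). limma 3.58.1 in R 4.3.3 (lmFit, contrasts.fit, eBayes with trend) was fitted to all libraries with a mean per group, two-sided, with Benjamini-Hochberg adjustment over 152393 peaks, with 0.05 as the limit on the adjusted p for a call. The fit was tested on simulated data. Genes were taken from GENCODE vM21 on GRCm38, where the study used vM23. The labels do not say whether pools came from separate matings, so p-values measure the spread between pools. Replicates of 1 number in KO and Ctrl deviated together, with every correlation of deviations over 0.1, in Pou5f1 late morula (0.109 to 0.192) and early ICM (0.121 to 0.162), and the blocked fit is given there where it changed a call. Blocked calls in other comparisons are given as alternatives only. In Sox2-KO the replicate numbers did not pair by this measure (0.086 to 0.293 in early ICM and -0.025 to 0.09 in late ICM).

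Peaks were described singly if they lay at a start site, in CR4 or SRR2, in an altered interval or from +101.9 to +114.4 kb of Sox2, were called in a KO comparison, or were among the 3 most open of a window. The windows, lists and rules were chosen with earlier results of these data known. Alternatives were a fit of only the libraries compared, quantile normalization, leaving out peaks below the median rlog, a log2 difference of at least 1, the replicate block, each library left out and 1 or 3 mismatches in the composite word.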

Additional observations from a re-analysis of the deposited data

Results flagged for a closer look

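Among the 29 peaks described singly, 232 sets of 4 libraries were examined for a library standing apart from the other 3 by Dixon's test, which chance gives in about 1 in 20, and 18 did. In Pou5f1 Ctrl late ICM, replicate 1 was low at 4 peaks downstream of Sox2: +93.4 kb (3.98, others 4.66 to 4.77), +101.9 kb (3.34, others 5.13 to 5.31), +106.6 kb (3.03, others 4.45 to 4.65) and +116.5 kb (3.15, others 4.39 to 4.56). Leaving it out ended 2 of the late ICM calls of Pou5f1-KO around Sox2, at +6.7 kb (-1.02, adjusted p = 0.11) and +15.0 kb (-1.16, adjusted p = 0.072). Calls gained in that fit are not listed here. In the same group, replicate 4 was low at the Pou5f1 start site (4.09, others 5.10 to 5.15).

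In Pou5f1 Ctrl early ICM, replicate 2 read 3.07 at Pou5f1 +0.9 kb (others 4.06 to 4.27), replicate 1 read 4.65 at Sox2 +84.7 kb (others 4.15 to 4.22) and replicate 3 read 3.51 at Sox2 +103.4 kb (others 2.67 to 2.78). In Pou5f1-KO late ICM, replicate 1 read 3.00 at Pou5f1 +0.9 kb (others 4.61 to 4.81) and 0.66 at Sox2 +6.7 kb (others 1.63 to 1.81). In Pou5f1-KO early ICM, replicate 4 read 4.10 at Sox2 +104.9 kb (others 2.52 to 2.61) and replicate 1 read 1.14 at +106.6 kb (others 2.32 to 2.55). In Sox2 Ctrl early ICM, replicate 4 read 2.52 at Sox2 -7.7 kb (others 1.57 to 1.72) and replicate 3 read 3.32 at +104.9 kb (others 4.13 to 4.27). In Sox2 Ctrl late ICM, replicate 1 read 2.35 at Sox2 -0.5 kb (others 3.13 to 3.28) and 4.61 at +50.1 kb (others 3.20 to 3.32). In Sox2-KO early ICM, replicate 3 read 5.56 at Pou5f1 +10.9 kb (others 5.01 to 5.09) and replicate 1 read 4.27 at Sox2 +116.5 kb (others 2.35 to 2.47).

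The Pou5f1-KO effect was more negative than the Sox2-KO effect in 6 tests of that difference in limma. In early ICM these were Sox2 +106.6 kb (-2.50, adjusted p = 0.028) and +110.1 kb (-2.29, adjusted p = 0.046). In late ICM they were +48.7 kb (-1.95, adjusted p = 0.024), +84.7 kb (-1.79, adjusted p = 0.034), +107.6 kb (-2.0, adjusted p = 0.036) and +110.1 kb (-2.53, adjusted p = 0.017). Each was lost in at least 2 of the 16 fits without 1 library.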

How the results depend on the processing

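Of the 31 called KO differences, not counting peaks in the altered interval of the gene targeted, 12 were called under every alternative, 5 more (SRR2 and +114.4 kb in both ICM stages and -7.7 kb in late ICM, all Pou5f1-KO) in each fit that tested them, since leaving out peaks below the median rlog removed them, and 0 changed sign. The 9 early ICM and 18 late ICM calls of Pou5f1-KO ranged over 6 to 11 and 13 to 19 with 1 library left out, and the 0 calls of Pou5f1-KO morula and late morula stayed at 0. In Sox2-KO late ICM the 4 calls became 9 with only the libraries compared, 9 with the replicate block, 2 when peaks below the median rlog were left out, and 2 to 6 with 1 library left out (2 without Sox2-KO replicate 2). In Sox2-KO early ICM the 0 calls became 1 with the replicate block, the -74.3 kb peak (adjusted p = 0.045), and 0 to 1 with 1 library left out. With 1 library left out, the 4 peaks lower from morula to late morula became 1 to 2, and the 25 peaks higher from late morula to early ICM 23 to 27. For the Pou5f1-KO effect minus the Sox2-KO effect, the 2 early ICM calls became 0 with only the libraries compared, 1 with quantile normalization and 0 to 3 with 1 library left out, and the 4 late ICM calls 1 with quantile normalization and 0 to 4. Between the Ctrl lines, the 2 late ICM calls became 0 to 2 with 1 library left out, and the 0 early ICM calls became 1 with the replicate block. From early to late ICM of Pou5f1 Ctrl, the 0 calls became 1 with only the libraries compared and 1 with the replicate block. The causes were not tested, and the shares of all peaks called under the alternatives are not given here. Replicate numbers did not pair Pou5f1 late ICM by the same measure (0.017 to 0.164); the block gave 23 calls there, adding CR4 (-0.50, adjusted p = 0.026), Pou5f1 -3.2 kb (0.049) and Sox2 +13.9, +57.7 and +106.6 kb (0.049, 0.029 and 0.036). The composite word was in 1 of the 55 peaks (1.82%) at 1 mismatch and in 4 (7.27%) at 3 mismatches, against 0.171% and 6.8% of all peaks. At 2 mismatches it was in 0.915% of the peaks that reach the median rlog, a share chosen after seeing the data. Weak peaks, such as SRR2 in morulae, have little room to fall, and without counts the depth behind a value is unknown.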
